A study of Mus musculus with 6 samples.

Results

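The clustered histone genes are the protein-coding genes of the Hist1, Hist2, Hist3 and Hist4 clusters, which encode the linker histone H1 and the core histones H2A, H2B, H3 and H4. Members were taken by name and biotype from the GENCODE M21 annotation of the mouse build GRCm38, by a rule that uses no measured value. It lists 67 such genes, of which 64 had a row among the 43629 genes of the count table: 6 of H1, 18 of H2A, 15 of H2B, 12 of H3 and 13 of H4. Hist1h2bh, Hist1h2bm and Hist2h2bb were not analysed here. In the annotation, 54 of the 67 lie in the Hist1 cluster on chromosome 13 (positions 21715763 to 23934851), 10 in Hist2 on chromosome 3 (96219865 to 96270132), 2 in Hist3 on chromosome 11 (58948920 to 58956830) and 1, Hist4h4, on chromosome 6 (136801553 to 136804415).

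RNA came from sorted c-kit+ cells of thawed bone marrow of C57BL/6 mice with end-point leukaemia. All animals were Cbfb-MYH11 mice, a model that carries the fusion gene made by inversion of chromosome 16 in human acute myeloid leukaemia. The 3 libraries named Gata2+/+ (replicates 3, 5 and 6) had both wild-type alleles of Gata2, a transcription factor of blood progenitors and mast cells, and the 3 named Gata2+/f (replicates 7, 9 and 11) had 1 allele that the labels write as f. The labels do not describe the f allele, name no Cre, and do not state that each library came from a different mouse, so p-values measure the spread between these libraries. In bulk RNA such as this, fewer cells of a type and less RNA per cell cannot be told apart.

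Most clustered histone genes are copied during DNA replication, and their messenger RNAs are the animal mRNAs known to end in a conserved stem-loop instead of a poly(A) tail. The stem-loop is bound by Slbp, cut with help of the U7 particle, and gives RNA that is made and lost with S phase. Some of these genes also give longer, spliced or read-through transcripts with a poly(A) tail, and such forms are known from differentiating cells. The libraries were made after poly(A) selection, so the values below count RNA that was retained by that step and do not measure the stem-loop-ended pool.

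The stem-loop was read from the GENCODE transcripts to show which members carry this signal near the stop codon. Only the annotated 3′ UTR was searched, with a fixed pattern. In some members, such as Hist1h1b, this UTR has 0 bases, so no match was possible. A member without a match may thus still carry the stem-loop. It was found in 34 of the 67 genes: 3 of H1, 10 of H2A, 8 of H2B, 5 of H3 and 8 of H4. The 26 members outside H4 shared 1 sequence, and 7 of the 8 H4 members had another in which a base pair of the stem differs. Below, the 16 letters of the stem-loop are in capitals within their surroundings, 5′ to 3′, for 1 described member of each type. Hist1h1c is at chr13:23739506-23739535 (plus strand), Hist3h2a at chr11:58955166-58955195 (plus), Hist1h2bg at chr13:23571837-23571866 (plus), Hist1h3a at chr13:23761882-23761911 (minus) and Hist1h4h at chr13:23531452-23531481 (plus), all on GRCm38.
Hist1h1c: ccaaaaGGCTCTTTTCAGAGCCaccactcc
Hist3h2a: accaaaGGCTCTTTTCAGAGCCacccacaa
Hist1h2bg: cccaaaGGCTCTTTTCAGAGCCacccatac
Hist1h3a: accaaaGGCTCTTTTCAGAGCCacacacga
Hist1h4h: accaaaGGCCCTTTTCAGGGCCgcccacat

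A long annotated 3′ UTR, over 200 bases, was present in 24 of the 67 genes. The letters AATAAA or ATTAAA, the usual poly(A) signals, stood in the last 50 bases of the transcript in 13 of these 24 and in 4 of the other 43. Annotated transcripts that stop at or near the stop codon, such as that of Hist1h1b, would not show a signal further on. Hist1h1c has both ends in its annotated transcript: the stem-loop begins 25 bases after the stop codon, and the 3′ UTR runs on to 880 bases with a poly(A) signal at its end.

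RefSeq promoters (GRCm38.p6, 250 bases before to 50 after the start) were matched for 62 of the 67 genes and searched on both strands for 4 short motifs. CCAAT, the letters of the box bound by NF-Y, was in 85.5% of them against 37.9% of 27025 promoters of all genes. It was in all 50 promoters of H1, H2A, H2B and H3 and in 25.0% of the 12 of H4. TATAAA was in 56.5% against 14.2% of all promoters. ATTTGCA, 7 letters of the octamer, was in 38.9% of H2A and 37.5% of H2B promoters against 3.98% of all, and in none of the H1, H3 or H4 promoters. AAACACA, the box of H1 promoters, was in 5 of 6 H1 promoters (83.3%) against 7.14% of all. The bases directly before the start of the 3 described H1 genes are shown because they share this arrangement, AAACACA then CCAAT, while their RNA differed in level. Motifs are in capitals, the opposite-strand form of CCAAT is ATTGG, and a match is a description of letters only. Positions are chr13:21780626-21780775 (minus strand) for Hist1h1b, chr13:23738657-23738806 (plus) for Hist1h1c and chr13:23622559-23622708 (minus) for Hist1h1e.
Hist1h1b: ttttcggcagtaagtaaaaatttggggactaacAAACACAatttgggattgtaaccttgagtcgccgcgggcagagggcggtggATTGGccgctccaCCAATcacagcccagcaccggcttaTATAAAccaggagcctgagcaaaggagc
Hist1h1c: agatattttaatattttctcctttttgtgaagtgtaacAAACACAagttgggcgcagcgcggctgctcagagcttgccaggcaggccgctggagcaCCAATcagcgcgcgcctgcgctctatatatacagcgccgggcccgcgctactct
Hist1h1e: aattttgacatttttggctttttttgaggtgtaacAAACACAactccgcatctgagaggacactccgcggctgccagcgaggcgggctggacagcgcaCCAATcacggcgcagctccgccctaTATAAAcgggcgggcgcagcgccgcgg

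Library totals ran from 53789568 to 67854631 expected counts, at which 3 counts correspond to 0.0424 to 0.0600 CPM (the share of a library's counts, put on a common scale with TMM factors). Gata2 itself, which checks the labels, was at 886, 887 and 737 CPM in Gata2+/+ replicates 3, 5 and 6 and at 498, 273 and 264 CPM in Gata2+/f replicates 7, 9 and 11, without overlap. Kit, the receptor used for the sort, was detected in every library, at 826, 1222 and 1466 CPM in Gata2+/+ and at 193, 175 and 328 CPM in Gata2+/f. In the rest of the text, values are given in this order of replicates and n is 3 libraries a group.

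Clustered histone RNA made up a small part of every library, and 1 linker histone gene, Hist1h1c, held most of the difference between the groups. The summed level of all members was 645, 274 and 237 CPM in Gata2+/+ and 135, 129 and 119 CPM in Gata2+/f (means 386 ± 226 and 128 ± 8.09, SD). These sums correspond to 0.0530, 0.0282 and 0.0227% of the counts of the Gata2+/+ libraries and 0.0140, 0.0144 and 0.0126% of the Gata2+/f libraries. The groups did not overlap, and the log2 ratio of the mean sums, Gata2+/f to Gata2+/+, was -1.60. Without Gata2+/+ replicate 3, the highest library, it was -0.96. Without Hist1h1c the sums were 111, 112 and 80.1 CPM against 94.4, 99.7 and 70.2 CPM, which overlap, and the log2 ratio was -0.20. Hist1h1c held 82.8, 59.1 and 66.3% of the summed CPM of all members in Gata2+/+ and 29.9, 22.8 and 40.9% in Gata2+/f.

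**Figure D1:**
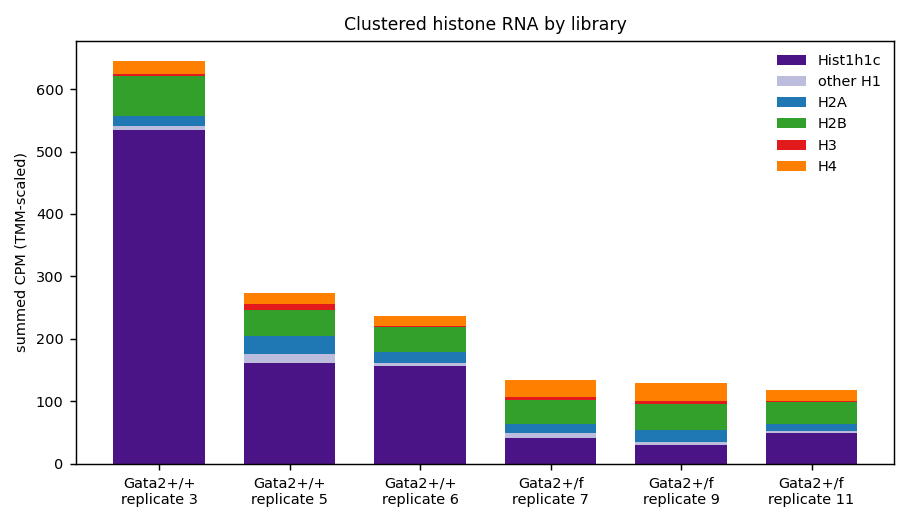
Stacked bars of summed CPM of clustered histone genes (vertical axis) in each of the 6 libraries (horizontal axis), split into Hist1h1c and groups of the other members. The Hist1h1c segment ranges from 157 to 534 CPM in Gata2+/+ and from 29.4 to 48.6 CPM in Gata2+/f, and the rest of the bar from 70.2 to 112 CPM over all 6 libraries.

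Few members differed between the groups one by one. Of the 64 genes, 46 passed the filter on low counts (5 of H1, 9 of H2A, 13 of H2B, 8 of H3, 11 of H4). Another 14 had too few counts to test, and 4 had 0 counts in every library. Where reads can be assigned to a gene, 0 counts allow up to 0.0424 to 0.0600 CPM in a library. Of these 4, Hist2h3c1 has no stretch of 75 bases of its own, and Hist1h2ah has few. Their reads may have been given to similar genes, so 0 counts set no such limit for them. edgeR's quasi-likelihood test called 0 of the 46 at an adjusted p under 0.05, as it called 0 of all 15432 genes tested (0%). At an unadjusted p under 0.05 it held 2 members, Hist1h1c and Hist1h3a (4.35%), against 22.6% of all genes. DESeq2 called 1 member, Hist1h1c, as lower in Gata2+/f (2.17%), against 5.7% of all genes called lower and 11.9% in either direction, and limma voom called 0. DESeq2 gave no adjusted p for 9 of the 46, which could not be called but stay in the share. The shares of all genes likewise keep genes without an adjusted p. The fitted log2 fold change was above 0 for 22 members (47.8%, against 51.1% of all genes) and below 0 for 24, with a median of -0.06 beside 0.02 for all genes. By type, the median was -0.21 for H1, -0.13 for H2A, 0.03 for H2B, -0.16 for H3 and 0.22 for H4. With 1 library left out these ran from -0.69 to 0.19, -0.70 to 0.75, -0.13 to 0.38, -0.49 to 0.70 and -0.0066 to 0.47, and all 5 were above 0 without Gata2+/+ replicate 5. With limma voom the H3 median was 0.06. The median of the 95% interval's half-width over the 45 tested members other than Hist1h1c was 1.42 on the log2 scale, and all 45 intervals included 1 or -1, so a 2-fold difference was not excluded for any of these genes.

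All 3 Gata2+/f libraries lay below all 3 Gata2+/+ libraries for 4 of the 46 tested members (8.70%, against 16.6% of all genes). These were Hist1h1c, Hist1h2bg, Hist1h3a and Hist2h4, the last named after its values were seen. They lay above for 1 tested member, Hist2h3c2 (2.17%, against 13.1%). Both shares are under the background. Of the members with too few counts to test, Hist1h3b (3, 0 and 3 counts against 24, 8 and 8) and Hist1h2bl (3, 4 and 3 against 9, 13 and 6) also lay above, both named after their values were seen.

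**Figure D2:**
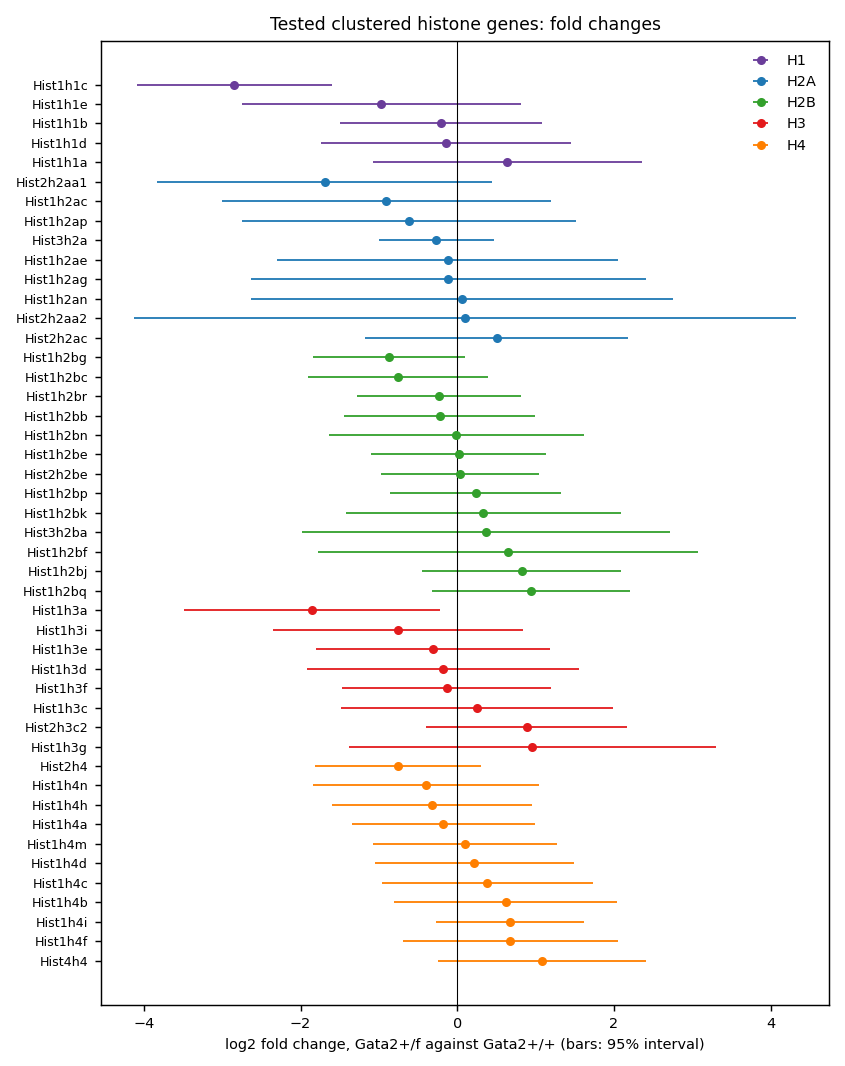
Log2 fold change, Gata2+/f against Gata2+/+ (horizontal axis), of each of the 46 tested members (rows, coloured by histone type), with bars for the 95% interval of edgeR's model. The interval of Hist1h1c, -4.09 to -1.60, lies below 0, the other interval that excludes 0 is that of Hist1h3a, and the rest include 0.

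H1 proteins bind the DNA between nucleosomes. Hist1h1c, which encodes the variant H1.2 (chromosome 13, 23738808 to 23740367, plus strand), was at 534, 162 and 157 CPM in Gata2+/+ and at 40.4, 29.4 and 48.6 CPM in Gata2+/f. The lowest Gata2+/+ library was above the highest Gata2+/f library, and replicate 3 stood far above the other two of its group. The underlying counts were 26731, 9507 and 10095 against 2853, 1762 and 3255. The means were 284 ± 216 and 39.5 ± 9.63 CPM (SD), 7.20-fold higher in Gata2+/+. The log2 fold change was -2.85 (SE 0.53), with an adjusted p of 0.0966 by edgeR's quasi-likelihood test, rank 133 of 15432 genes by p. DESeq2 gave -2.83 and an adjusted p of 4.37e-05. Leaving out 1 library at a time moved the log2 fold change between -3.14 and -1.97 and edgeR's adjusted p between 0.0879 and 0.277, and without replicate 3 it was -1.97.

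Hist1h1c was also the leading member per length. Per kilobase of exon its mean level was 182 CPM in Gata2+/+ against 25.3 CPM in the other group, followed by Hist1h2bc with 19.4 and 11.4 CPM and Hist1h4i with 12.3 and 19.7 CPM. It held 98.7, 92.4 and 97.9% of the summed H1 CPM in Gata2+/+ and 80.8, 84.2 and 92.7% in Gata2+/f. The other H1 genes together were at 6.96, 13.4 and 3.38 CPM against 9.58, 5.53 and 3.83 CPM, so that the groups overlapped without Hist1h1c.

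Hist1h1b, which encodes H1.5, was at 3.26, 3.17 and 1.49 CPM against 3.68, 1.54 and 1.64 CPM, with overlap (log2 fold change -0.21, SE 0.55). Hist1h1e, which encodes H1.4, was at 1.58, 5.72 and 0.841 CPM against 1.98, 1.32 and 0.852 CPM. Its log2 fold change of -0.97 (SE 0.76) rested on Gata2+/+ replicate 5 and was 0.19 without that library. The annotated exons of Hist1h1e overlap Hist1h2be on the same strand, so reads there are divided between them. The testis form Hist1h1t had 1 to 6 counts a library and was not tested, and the testis forms Hist1h2aa and Hist1h2ba had 0 counts in every library.

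H2A and H2B form the dimers at the outside of the nucleosome core. None of the 9 tested H2A genes had groups that did not overlap. Hist3h2a of the Hist3 cluster, with the highest CPM of the type before correction for length, was at 12.6, 10.8 and 10.5 CPM against 9.38, 11.1 and 7.62 CPM, with overlap. Its log2 fold change was -0.27 (SE 0.32) and -0.10 without Gata2+/f replicate 11. It varied least between libraries among the H2A genes described here. Its annotated 3′ UTR has 1700 bases, and the span of the gene overlaps that of Trim17 on the same strand. Hist2h2aa1 was at 2.26, 9.74 and 4.87 CPM against 0.269, 3.51 and 1.45 CPM, with overlap (log2 fold change -1.69, SE 0.92, adjusted p 0.307 by edgeR). Leaving out Gata2+/+ replicate 5 gave -1.04, and leaving out Gata2+/f replicate 9 gave -2.67. Its near-identical copy Hist2h2aa2 has no stretch of 75 bases of its own (0%), so the division of reads between them is uncertain. Their sum was 2.26, 9.74 and 5.87 CPM against 0.849, 4.01 and 1.45 CPM, also with overlap. Hist1h2ap (0.400, 3.95 and 0.732 against 0.934, 1.85 and 0.523 CPM) and Hist1h2ac (0.280, 1.63 and 0.156 against 0.495, 0.368 and 0.239 CPM) peaked in Gata2+/+ replicate 5. Without that library their log2 fold changes went from -0.62 to 0.95 and from -0.91 to 0.75. Only 7.4% of the stretches of 75 bases of Hist1h2ap are its own, so its values depend on how shared reads were divided. Summed over all H2A genes, the levels were 16.1, 29.0 and 17.9 CPM against 13.1, 19.4 and 10.8 CPM.

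Among the H2B genes, Hist1h2bc was at 40.8, 13.2 and 13.3 CPM in Gata2+/+ and 10.5, 15.7 and 13.5 CPM in Gata2+/f. As with Hist1h1c, replicate 3 was the highest library, but here the other 5 libraries were alike, and the log2 fold change of -0.76 (SE 0.49) was 0.05 without it. Hist1h2bc is annotated over positions 23684199 to 23692908 of chromosome 13 with a 3′ UTR of 742 bases. The stem-loop pattern had no match in that UTR. Hist2h2be, with a transcript of 2620 bases, was at 5.88, 8.60 and 14.2 CPM against 13.1, 7.79 and 8.44 CPM, and its log2 fold change was 0.03 (SE 0.43). Hist1h2bg was the 1 tested H2B gene whose groups did not overlap, at 7.74, 5.09 and 6.45 CPM against 4.36, 2.37 and 3.80 CPM (log2 fold change -0.87, SE 0.42, adjusted p 0.258 by edgeR). Hist1h2bq was at 0.740, 1.58 and 0.763 CPM against 1.3, 2.81 and 1.81 CPM, with overlap, and 3.9% of its stretches of 75 bases are its own. Hist3h2ba of the Hist3 cluster ranged from 0.140 to 2.55 CPM in Gata2+/+ and from 0.717 to 3.11 CPM in Gata2+/f. The H2B sums were 63.4, 41.6 and 39.9 CPM against 39.4, 41.4 and 35.1 CPM.

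H3 and H4 form the tetramer at the centre of the nucleosome. H3 had the lowest summed CPM of the 5 types in every library, without correction for length, at 3.24, 9.96 and 2.12 CPM in Gata2+/+ and 4.06, 4.39 and 2.69 CPM in Gata2+/f. Hist1h3a was at 0.780, 2.67 and 0.529 CPM against 0.368, 0.368 and 0.359 CPM, from 22 to 157 counts a library. The groups did not overlap, and the log2 fold change was -1.86 (SE 0.70), with an unadjusted p of 0.0308 and an adjusted p of 0.187 by edgeR. Without Gata2+/+ replicate 5 it was -0.85. Hist2h3c2, the 1 tested member with all Gata2+/f libraries above all Gata2+/+ libraries, had 4, 6 and 5 counts against 11, 9 and 12 (log2 fold change 0.89, SE 0.55), close to the floor of 3 counts. Of its stretches of 75 bases, 37.4% are its own. Hist1h3e was at 0.700, 2.20 and 0.576 CPM against 1.02, 1.14 and 0.643 CPM, and Hist1h3f at 0.600, 1.26 and 0.405 CPM against 0.608, 0.852 and 0.598 CPM. Both overlapped, and both had log2 fold changes below 0 (-0.31 and -0.14) that were 0.54 and 0.44 without replicate 5.

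H4 was the type whose summed mean was higher in Gata2+/f, at 21.1, 18.2 and 16.7 CPM against 28.2, 29.0 and 17.8 CPM, with overlap (log2 ratio 0.42). Most of the difference between the mean sums, 18.7 against 25.0 CPM, lay in Hist1h4i (means 8.98 against 14.3 CPM). Hist1h4i, the H4 gene with the highest CPM, was at 11.1, 5.40 and 10.4 CPM against 16.6, 16.8 and 9.71 CPM, with overlap. Its log2 fold change was 0.68 (SE 0.41, adjusted p 0.349 by edgeR), and 0.41 without Gata2+/+ replicate 5. Its annotated 3′ UTR of 376 bases ends with a poly(A) signal and held no match to the stem-loop pattern. Hist4h4, alone in its cluster, was at 0.720, 0.613 and 1.29 CPM against 2.70, 1.89 and 0.971 CPM, with the highest log2 fold change of the tested members, 1.08 (SE 0.57, adjusted p 0.294 by edgeR). Hist1h4m had a log2 fold change of 0.10 (SE 0.51) and Hist1h4h of -0.33 (SE 0.55), both with overlap. The latter ran from -0.83 without Gata2+/f replicate 9 to -0.05 without Gata2+/f replicate 11. Hist2h4 was at 0.640, 0.868 and 0.747 CPM against 0.424, 0.418 and 0.493 CPM, without overlap (log2 fold change -0.75, SE 0.46).

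**Figure D3:**
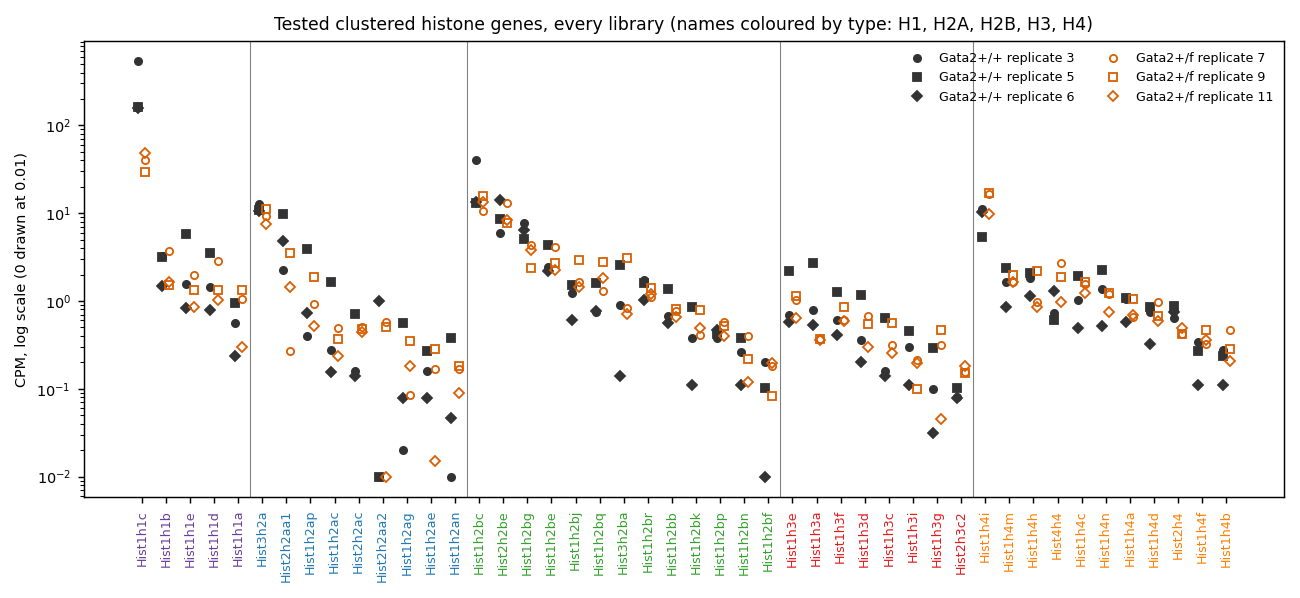
CPM on a log axis (vertical) of each of the 46 tested members (horizontal, names coloured by type) in every library, filled symbols for Gata2+/+ and open symbols for Gata2+/f. Hist1h1c stands above the rest in all 6 libraries, 38 members stay under 5 CPM in every library, and the symbols of Gata2+/+ replicate 5 are the highest for 22 members.

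Libraries of the same genotype differed widely for these genes. Gata2+/+ replicate 5 was the highest of the 6 libraries for 22 of the 46 tested members (47.8%), while it was the highest for 11.4% of all tested genes. Gata2+/+ replicate 6 was the lowest library for 27 of the 46. The share of all tested genes lowest in that library was not computed, so this count does not show a trait of the members. Among members with a short 3′ UTR, summed levels were 26.1, 44.2 and 21.6 CPM in Gata2+/+ and 23.6, 27.7 and 17.6 CPM in Gata2+/f, with replicate 5 highest. Hist2h3b, named after its values were seen, was at 1.16 CPM in replicate 5 and at 0.0668 CPM or less in the other 5 libraries. Without replicate 5 the median log2 fold change of the members was 0.47, with 33 of 47 above 0, in place of -0.06. Replicate 5 had the lowest sum of S phase genes of all 6 libraries, 1738 CPM. Its level of small nuclear RNAs, which lack a poly(A) tail, was not the highest: snRNA and scaRNA genes summed to 26.7, 16.4 and 9.55 CPM in Gata2+/+ and 14.8, 11.5 and 13.7 CPM in Gata2+/f. Rn7sk, another RNA without a poly(A) tail, was at 39.1, 24.6 and 27.6 CPM against 16.8, 24.2 and 13.2 CPM, lower in every Gata2+/f library. Rpph1, also without a tail, went the other way without overlap, at 1.44, 1.96 and 1.99 CPM against 2.25, 3.84 and 2.33 CPM. Rmrp and Terc overlapped between the groups, with higher means in Gata2+/f. The part of such carry-over in the histone values was not tested.

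Genes of DNA replication, the process that clustered histone mRNAs accompany, were read beside them. All 34 genes of an S phase list had log2 fold changes above 0, with a median of 1.03 beside 0.02 for all genes. In 25 of the 34 the Gata2+/f libraries lay above all Gata2+/+ libraries, against 13.1% of all genes. edgeR called 0 of them at an adjusted p under 0.05. Its unadjusted p was under 0.05 for 25, all higher, against 11.1% of all genes. DESeq2 called 16 as higher, against 6.16% of all genes. Cdc45, a part of the replicative helicase, was at 18.0, 14.4 and 15 CPM against 53.7, 47.2 and 37.8 CPM (log2 fold change 1.55, SE 0.25, DESeq2 adjusted p 8.66e-07). Gins1 of the same helicase (1.53, SE 0.33) and Uhrf1, which maintains DNA methylation (1.42, SE 0.31), were also called by DESeq2. Pcna, the replication clamp, was not (363, 187 and 225 against 391, 316 and 308 CPM, log2 fold change 0.39, SE 0.30), and its fold change ran from 0.20 without Gata2+/+ replicate 5 to 0.77 without Gata2+/+ replicate 3. Members other than Hist1h1c, which in total overlapped between groups, came to 4.04, 6.45 and 2.96% of the S phase sum in Gata2+/+ and to 1.62, 2.59 and 1.98% in Gata2+/f, without overlap.

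The factors that make and end histone mRNA were read in the same way. Of 22 tested genes of transcription and 3′ end processing, 18 had a log2 fold change above 0 and 4 below, with a median of 0.32. In 5 of the 22 the Gata2+/f libraries lay above all Gata2+/+ libraries (13.1% of all genes) and in 0 below (16.6%). DESeq2 called 2 as higher (6.16% of all genes) and edgeR called 0. The unadjusted p of edgeR was under 0.05 for 3 (22.6% of all genes). Slbp, which binds the stem-loop, was at 103, 67.9 and 105 CPM in Gata2+/+ and 152, 85.6 and 122 CPM in Gata2+/f, with overlap (log2 fold change 0.38, SE 0.29). Npat, the coactivator of clustered histone genes, was at 52.5, 34.2 and 40.6 CPM against 41.8, 19.3 and 32.0 CPM, also with overlap (-0.45, SE 0.33). With 1 library left out, Slbp ran from 0.20 (without Gata2+/+ replicate 5) to 0.63 (without Gata2+/f replicate 9) and Npat from -0.68 (without Gata2+/f replicate 7) to -0.15 (without Gata2+/f replicate 9). Zfp473, a partner of the U7 particle, was at 0.5, 0.851 and 0.514 CPM against 1.61, 2.07 and 1.54 CPM, without overlap (1.48, SE 0.47, DESeq2 adjusted p 0.0132). Ncbp2, a subunit of the cap-binding complex, was the other gene called by DESeq2 (0.86, SE 0.25, adjusted p 0.0283), and its partner Srrt was not (0.51, SE 0.21).

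Among 24 tested histone chaperones, which carry and deposit histone proteins, 16 had log2 fold changes above 0 and 8 below (median 0.25). DESeq2 called 4 of the 24 as higher (6.16% of all genes) and edgeR called 0. The unadjusted p of edgeR was under 0.05 for 5 higher genes (11.1% of all genes) and 1 lower gene (11.5%). The groups did not overlap for 7 higher chaperones of the 24 (13.1% of all genes) and 3 lower ones (16.6% of all genes). Chaf1a, the large subunit of chromatin assembly factor 1, was at 40.4, 24.1 and 34.6 CPM against 103, 74.4 and 63.9 CPM (log2 fold change 1.28, SE 0.29). The chaperone Asf1b (1.33, SE 0.33) and the HIRA-interacting Hirip3 (1.15, SE 0.28) likewise had no overlap. The 3 lower ones, named after their values were seen, included the middle subunit of the same assembly factor, Chaf1b, at 136, 114 and 140 CPM against 97.1, 68.2 and 87.5 CPM (-0.62, SE 0.22, unadjusted p 0.0221 and adjusted p 0.169 by edgeR). The others were the elongation factor Supt6 (-0.44, SE 0.23) and Ubn1 of the HIRA complex (-0.50, SE 0.24).

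Many histone genes outside the clusters have ordinary polyadenylated mRNAs. Whether this holds for each gene of the list, H2afx included, was not examined. Of 13 tested, 8 had log2 fold changes above 0 and 5 below (median 0.15), edgeR and DESeq2 called 0, and edgeR's unadjusted p was under 0.05 for 1 higher gene and 2 lower genes, against 22.6% of all genes in either direction. H3f3b, which encodes the replacement histone H3.3, was at 4078, 1088 and 1362 CPM in Gata2+/+ and 742, 795 and 822 CPM in Gata2+/f, without overlap. Like Hist1h1c, it was highest in replicate 3. Its log2 fold change was -1.47 (SE 0.51, adjusted p 0.168 by edgeR), and -0.59 without that library. The linker variant H1f0 was at 88.1, 54.1 and 62.6 CPM against 19.3, 18.4 and 56.7 CPM, with overlap (-1.12, SE 0.47, and -1.81 without Gata2+/f replicate 11). H2afx, the variant phosphorylated at DNA breaks, was at 30.2, 39.2 and 29.7 CPM against 47.0, 87.5 and 39.4 CPM (0.81, SE 0.34, and 0.44 without Gata2+/f replicate 9).

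**Figure D4:**
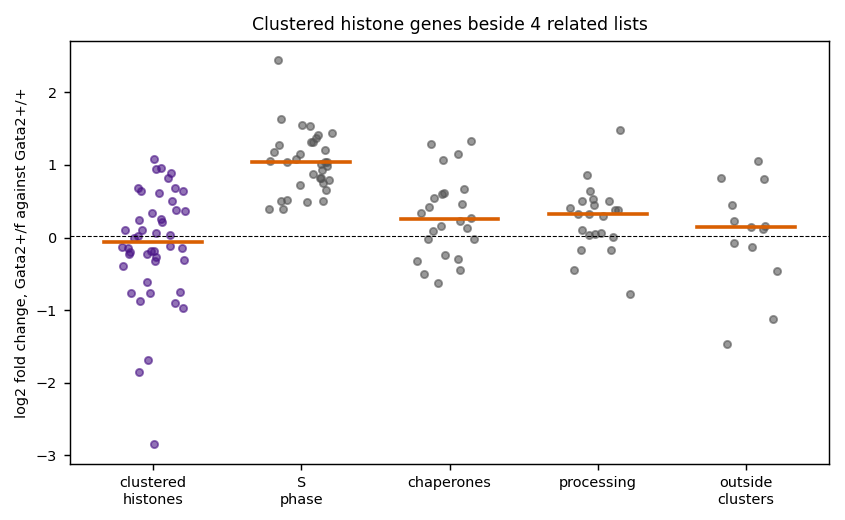
Log2 fold change, Gata2+/f against Gata2+/+ (vertical axis), of each tested clustered histone gene and of each gene in 4 related lists (horizontal axis), with the median of all genes as a dashed line. The points of the S phase list all lie above 0 around a median of 1.03, while the clustered histone genes spread on both sides of 0 with Hist1h1c lowest at -2.85.

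Lists of cell type markers were read beside Hist1h1c and went in both directions. The mast cell list, which includes Kit and Gata2, had 10 of 10 genes with log2 fold changes below 0 and summed to 11032 to 13197 CPM in Gata2+/+ and 1308 to 4162 CPM in Gata2+/f. The late neutrophil list had 12 of 12 above 0 and summed to 163 to 486 CPM against 4047 to 8144 CPM, and the monocyte list had 8 of 8 above 0 (142 to 390 CPM against 512 to 1184 CPM). The megakaryocyte list summed to 497 to 665 CPM against 22.5 to 125 CPM, with 2 of 5 tested above 0. Itga2b, which many progenitors also express, held nearly all of that sum (647, 625 and 495 CPM against 20.4, 97.1 and 106 CPM), the other 4 tested genes overlapped between the groups, and the list's median ran from -2.72 to 2.03 with 1 library left out. The erythroid list, with 7 of 12 above 0, summed to 6552 to 10440 CPM against 1850 to 6538 CPM. The globins Hba-a1, Hba-a2, Hbb-bs and Hbb-bt, named after their values were seen, held most of that sum in every Gata2+/+ library. All of these globins had log2 fold changes below 0, while the 7 genes above 0 included Tfrc and Epor. B cell markers, 5 of 5 tested above 0, summed to 3.46 to 9.65 CPM against 15.7 to 24.3 CPM, and T cell markers, 3 of 3, to 5.53 to 7.34 CPM against 4.29 to 17.3 CPM. No listed marker was at 0 in all 6 libraries. The part of these cells in the Hist1h1c difference was not tested. The 563 tested genes of chromosome 13, which carries Hist1h1c, had a median log2 fold change of 0.04.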

How the data were processed

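The authors deposited RSEM expected counts per Ensembl gene for 6 poly(A)-selected libraries, with no normalization (11.7% of values not whole). Per the submitters' processing notes, CASAVA 1.8.2, STAR 2.5.4a, RSEM 1.3.0 and GRCm38 were used. Annotation release and strand setting are not given in the sources used here, so reads of antisense partners and of near-identical histone genes are uncertain (median share of 75-base stretches unique to a member 58.0%). GENCODE M21 matched 42548 of 43629 IDs.

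Counts were rounded, filtered (filterByExpr, minimum count 10; 15432 genes left), scaled by TMM and tested with edgeR 4.0.16 (quasi-likelihood, two-sided, Benjamini-Hochberg over all 15432 genes, threshold 0.05) in R 4.3.3. Standard errors and 95% intervals were derived from that model's test statistic. Simulated data were used to check its fold changes and calls, not these intervals. Alternatives were DESeq2 1.42.0, limma voom 3.58.1, edgeR's newer form, other scalings and filters, and leaving out each library. Members and lists were chosen with earlier results of these data known. Named members are, in each type, the 3 most abundant and the 2 with the smallest p, all tested ones of Hist3 and Hist4, and any called by edgeR or DESeq2. In related lists, named genes were taken from the 3 with the smallest p, with Slbp, Npat, Pcna and Gata2 added. The groups of 3 were too small for an outlier test.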

Additional observations from a re-analysis of the deposited data

How the results depend on the processing

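In place of 0, the count of all genes called was 1829 with DESeq2 (950 higher and 879 lower), 9 with limma voom, 32 with edgeR's newer form, 19 with no filter beyond 1 count and 444 at an adjusted p under 0.1 (155 higher and 289 lower), and it ran from 0 to 66 when 1 library was left out. Of the members, 1 was called with DESeq2 and 1 at an adjusted p under 0.1, both times Hist1h1c, and 0 in every fit that left out a library. Hist1h1c kept a log2 fold change below 0 in all these settings.

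The log2 ratio of the summed members, -1.60, was -0.20 without the most abundant member and -0.42 without members with a long 3′ UTR, and ran from -1.81 to -0.96 with 1 library left out. The median of the members ran from -0.34 to 0.47 and was 0.47 without Gata2+/+ replicate 5. The median of all genes was 0.02 with TMM and 0.11 with upper quartile factors.

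With limma voom, the log2 fold change of Hist1h3f was 0.00173 and the log2 fold change of Cd247 was -0.21. With 1 library left out, the direction changed for Hist1h1b (-0.69 to 0.060), Hist1h1e (-1.37 to 0.19), Hist1h2ac (-1.36 to 0.75), Hist1h2ap (-1.18 to 0.95), Hist1h2bc (-1.04 to 0.051), Hist1h3e (-0.61 to 0.54), Hist1h3f (-0.41 to 0.44), Hist1h4m (-0.18 to 0.47), Hist2h2be (-0.19 to 0.47), Hist3h2ba (-0.60 to 1.57), Cd247 (-0.92 to 0.80), Cd3d (-0.26 to 0.78) and Pf4 (-0.59 to 4.97). The cause was not tested. No paired analysis was possible because the groups share no replicate number. Levels were low for 38 of the 46 tested members, under 5 CPM in every library. Hist2h2be, with 294 to 928 counts a library, still had an SE of 0.43.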
